A study of Mus musculus with 4 samples.

Results

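The genes described here are the ATP-binding cassette (ABC) transporters and the apolipoproteins, with clusterin (Clu), the plasma enzymes and transfer proteins Lcat and Pltp, and the lipoprotein receptors Lrp1 and Scarb1. They were chosen by the gene name printed on the array. Names that begin Apoa to Apoe had to end there or in digits, without a description of editing, a binding protein or a receptor. This left out 9 probes for genes such as Apobec1. The choice gave 116 of 41174 probes and 65 of 19512 named genes, of which 49 are ABC genes with 93 probes and 16 are lipoprotein genes with 23 probes. RNA from C57BL/6 STMN1-/- embryonic fibroblasts (MEFs) was compared with RNA from wild-type STMN1+/+ MEFs of the same strain on 4 oligonucleotide arrays (Agilent, 2-color). The STMN1 gene, which encodes the tubulin-binding protein stathmin, was disrupted with a neomycin cassette in the mutant cells. STMN1-/- RNA carried Cy3 on replicates 1 and 2 and Cy5 on replicates 3 and 4, and STMN1+/+ RNA carried the other dye on the same array. The labels do not say whether the 4 arrays hold RNA of separate cultures, so that p-values reflect only how these arrays spread, which may be technical.

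ABC transporters use ATP to move lipids, drugs, metal complexes or peptides across membranes, and a few soluble members work on ribosomes. In cholesterol efflux, Abca1 passes cholesterol and phospholipid to lipid-poor apolipoprotein A-I, and Abcg1 passes cholesterol to the larger particles that form from it. Apolipoproteins hold lipoprotein particles together and are ligands of endocytic receptors, whereas Scarb1 takes up cholesteryl ester from HDL.

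Each value below is the log2 ratio of STMN1-/- over STMN1+/+ signal on 1 array, so that negative values stand for lower signal in STMN1-/- MEFs. Means over arrays carry the SE of the limma fit, and p-values were adjusted by Benjamini-Hochberg over all 27724 probes tested, with 0.05 as the threshold. Median ratios of the arrays lay between -0.01 and 0.00. Both Stmn1 probes were lower in STMN1-/- MEFs, with ratios of -2.24 to -2.03 for probe A_52_P319161 and -0.52 to -0.24 for the brighter probe A_51_P495641. The authors report that the array's STMN1 probe is flawed, since it also matches another chromosome, without naming the probe. By qRT-PCR and western blotting they found neither STMN1 mRNA nor protein in STMN1-/- MEFs. Of the 10 fibroblast markers, all were measured, and 8 were higher and 1, Vim, was lower in STMN1-/- MEFs. Over all genes tested, 13.4% were higher and 12.2% were lower. The summed signal of the fibroblast markers was 4178600 to 6587626 in STMN1-/- MEFs and 3823754 to 4453393 in STMN1+/+ MEFs. The largest parts came from Col1a2 (mean signals 1353535 and 612401) and S100a4 (1342196 and 2050402). S100a4 did not pass (limma, adjusted p = 0.309). Its ratios were -1.54 and -1.38 with STMN1-/- RNA in Cy3 and 0.08 and 0.38 with it in Cy5.

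Of the 65 genes, 44 were tested, since a probe of theirs was well above background for either genotype on 1 array or more. The other 21 were not well above background: Abca4, Abca8b, Abca13, Abca14, Abca15, Abca16, Abca17, Abcb1a, Abcb5, Abcc2, Abcc6, Abcc8, Abcc10, Abcc12, Abcd2, Abcg3, Abcg5, Abcg8, Apoa4, Apob and Apoc3. Represented by its brightest probe, 2 of 31 tested ABC genes were higher (6.45%) and 6 were lower (19.4%) in STMN1-/- MEFs. Over all 14998 genes tested, 13.4% were higher and 12.2% were lower. Of 13 tested lipoprotein genes, 2 were higher (15.4%) and 3 were lower (23.1%). Median log2 ratios were -0.02 for the ABC genes, -0.02 for the lipoprotein genes and 0.01 for all genes. Of the 13 called genes, those reported here by name were Apod, Abca9, Abca2 and Scarb1 on the higher side, and Abcb1b, Abcb4, Apoa2, Abcg1, Clu, Abcb11, Abcc1 and Apoe on the lower side. Each of the 13 turned the same way on 4 of 4 arrays, which a call made on these same arrays favours. Of the 44 tested genes in all, 22 did so, and the share over all genes was not counted. Of the 13 called genes, 6 changed by 1.5-fold or more, and the share over all called genes was not counted either.

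**Figure D1:**
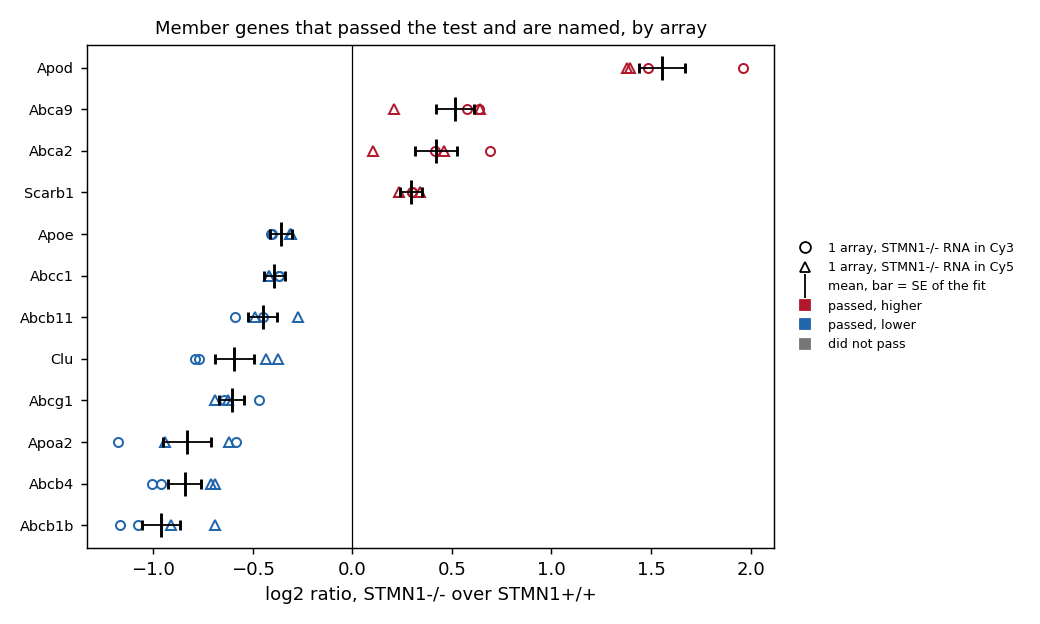
Log2 ratio of STMN1-/- over STMN1+/+ signal (x axis) for 12 of the 13 member genes that passed the test (y axis), with open symbols for single arrays, circles with STMN1-/- RNA in Cy3 and triangles with it in Cy5, and black ticks with bars for the mean and SE. Apod stands apart on the higher side at 1.55, and Abcb1b and Abcb4 lie lowest at -0.96 and -0.84.

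Apod was the member with the largest change among those called. It encodes a small lipid-binding protein of the lipocalin family that binds arachidonic acid and steroids. Its signal was 885.5, 1037, 806 and 949 in STMN1-/- MEFs on replicates 1 to 4 and 227, 371, 309 and 362 in STMN1+/+ MEFs. The groups did not overlap, and the lowest STMN1-/- signal lay well over the highest STMN1+/+ signal. The log2 ratios were 1.96, 1.48, 1.38 and 1.39, with a mean of 1.55 ± 0.117 (SE, n = 4), which is 2.94-fold higher (limma, adjusted p = 0.00202). With normexp background correction and loess the ratio was 0.55 and the call was lost (limma, adjusted p = 0.0552). Apod was measured by 1 probe, whose position spans chr16:30974888-30977873 (mm7, minus strand), more than the length of the probe, so that it crosses at least 1 exon junction. The probe is shown because all values of Apod come from it, and it has a reading frame without a stop.
Apod A_51_P366811: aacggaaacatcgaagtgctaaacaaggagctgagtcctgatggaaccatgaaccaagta

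The largest falls among the ABC genes were those of Abcb1b and Abcb4. Abcb1b encodes one of the mouse forms of P-glycoprotein, the multidrug efflux pump, and Abcb4 encodes the transporter that puts phosphatidylcholine into bile. The brightest Abcb1b probe, A_51_P245368 (chr5:8903569-8903628, plus strand), gave signals of 4614, 4665, 5393 and 5332 in STMN1-/- MEFs and of 9747, 10467, 8712 and 10016 in STMN1+/+ MEFs. The Abcb4 probe, A_51_P249118 (chr5:8996752-8996811, plus strand), gave 4182, 4191, 4242 and 5135.5 in STMN1-/- MEFs and 8414, 8170, 6844 and 8401 in STMN1+/+ MEFs. For both genes, every STMN1-/- value lay below every STMN1+/+ value. Log2 ratios of Abcb1b were -1.08, -1.17, -0.69 and -0.91, with a mean of -0.96 ± 0.0949 (SE, n = 4), a 1.95-fold decrease (limma, adjusted p = 0.00395). Those of Abcb4 were -1.01, -0.96, -0.69 and -0.71, with a mean of -0.84 ± 0.0817 (SE, n = 4), a 1.79-fold decrease (limma, adjusted p = 0.00373). On both probes the 2 arrays with STMN1-/- RNA in Cy3 gave the lower ratios. The ratio of Abcb1b was lower than that of Abcb4 by 0.00 to 0.20 on the 4 arrays, with a mean difference of -0.12 (exact sign-flip permutation test, two-sided, p = 0.13, the smallest that 4 arrays allow).

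Abcb1b was measured by 3 probes. Probe A_52_P170509 (chr5:8899085-8899144) had ratios of -0.93, -0.90, -1.13 and -0.93 and a mean of -0.97 ± 0.0650 (SE, n = 4; limma, adjusted p = 0.00151), within 0.01 of the brightest probe. Probe A_52_P92772 (chr5:8865089-8865351), which crosses an exon junction, was dim. It was not well above background in STMN1-/- MEFs on any array and in STMN1+/+ MEFs on 2 of 4, and its mean fall was at least 1.15-fold and missed the threshold (limma, adjusted p = 0.0520). The single probe of the paralog Abcb1a was not well above background in either genotype on any array (mean signal 31.6 in STMN1-/- and 37.3 in STMN1+/+ MEFs). Cross-hybridization between the paralogs was not analysed here. The probes with a reading frame free of stops are printed to show which stretches of the messages were measured.
Abcb1b A_52_P170509: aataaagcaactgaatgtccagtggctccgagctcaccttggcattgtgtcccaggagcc
Abcb1b A_52_P92772: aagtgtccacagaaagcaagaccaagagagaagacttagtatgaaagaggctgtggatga
Abcb4 A_51_P249118: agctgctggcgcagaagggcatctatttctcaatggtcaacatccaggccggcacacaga

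Abcb1a, Abcb1b and Abcb4 lie next to each other on chromosome 5. Their neighbours were looked at after these values were seen, taking 5 protein-coding genes on each side in RefSeq's order (GRCm38.p6). Of these 10 genes, Adam22 and Grm3 were not well above background. Elapor2 was the only neighbour to pass the test, at -0.43 ± 0.0998 (SE, n = 4; limma, adjusted p = 0.0380). Over all genes tested, 13.4% were higher and 12.2% were lower, so that 1 call among so few genes says little about the region. Crot, next to Abcb4, had a mean ratio of 0.04 (limma, adjusted p = 0.746), and Tmem243, the gene after Crot, had -0.50 (limma, adjusted p = 0.0506). On the Abcb1a side, Rundc3b had -0.61 (limma, adjusted p = 0.133), Slc25a40 -0.17 (limma, adjusted p = 0.544) and Dbf4 -0.28 (limma, adjusted p = 0.0555). Dmtf1 had 0.10 (limma, adjusted p = 0.564) and Sri, measured on 2 arrays, -0.06 (limma, adjusted p = 0.716). The neighbours of the pair differed among themselves, and Crot, 1 gene beyond Abcb4, had ratios of -0.08 to 0.17.

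**Figure D2:**
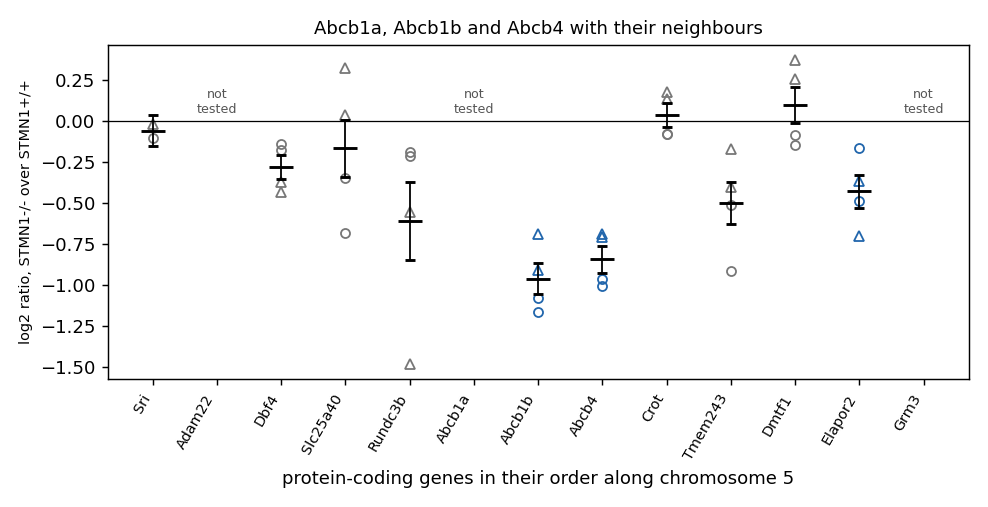
Log2 ratio (y axis) of 13 protein-coding genes placed in their order along chromosome 5 (x axis, not to scale), with circles for arrays with STMN1-/- RNA in Cy3, triangles for those with it in Cy5, and black ticks with bars for the mean and SE. Abcb1b and Abcb4 had the lowest means, and blue symbols mark genes that passed the test.

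Since Abcb1b and Abcb4 fell together, the 250 bases before the start of each were read from RefSeq (GRCm38.p6). Abcb1b is at chr5:8797897-8798146 and Abcb4 at chr5:8893471-8893720, both on the plus strand. Capitals mark the CCAAT box (CCAAT, or ATTGG on the other strand) and the GC box (GGGCGG, or CCGCCC), searched on both strands.
Abcb1b: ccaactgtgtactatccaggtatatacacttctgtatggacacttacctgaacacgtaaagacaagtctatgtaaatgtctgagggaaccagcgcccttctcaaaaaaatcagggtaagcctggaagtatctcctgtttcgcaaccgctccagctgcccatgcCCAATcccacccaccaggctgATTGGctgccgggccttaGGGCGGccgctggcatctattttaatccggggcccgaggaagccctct
Abcb4: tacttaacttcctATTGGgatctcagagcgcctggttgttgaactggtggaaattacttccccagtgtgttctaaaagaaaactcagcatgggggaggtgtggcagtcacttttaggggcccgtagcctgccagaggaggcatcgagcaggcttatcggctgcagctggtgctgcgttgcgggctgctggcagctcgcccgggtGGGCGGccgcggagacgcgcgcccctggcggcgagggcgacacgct
The GC box began 48 bases before the start of Abcb1b and 46 bases before that of Abcb4. The CCAAT box began 87 and 66 bases before the start of Abcb1b and 237 bases before that of Abcb4. Of 32851 promoter windows of this length, 32.7% held a GC box and 33.8% a CCAAT box. Of the 60 windows of 49 member genes that the table holds, 38.3% held a GC box and 30.0% a CCAAT box.

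Among the other transporters of sterols and phospholipids, Abcg1 was lower in STMN1-/- MEFs. Its probe (A_51_P222467, chr17:29310847-29310906) gave signals of 2690, 2526, 2592 and 2680 in STMN1-/- MEFs and of 3721, 3953, 4185 and 4134.5 in STMN1+/+ MEFs. The groups did not overlap, and the spread within each was small beside the gap between them. The log2 ratios were -0.47, -0.65, -0.69 and -0.63, with a mean of -0.61 ± 0.0633 (SE, n = 4), a 1.52-fold decrease (limma, adjusted p = 0.00458). Abcg1, Abcb1b and Abcb4 passed the test, in the same direction, under all 18 alternative settings. Abca1, the partner of Abcg1 in cholesterol efflux, had a mean of 0.39 ± 0.153 (SE, n = 4; limma, adjusted p = 0.134). Its ratios followed the dye, with -0.02 and 0.18 when STMN1-/- RNA was in Cy3 and 0.63 and 0.78 when it was in Cy5. With the dye as a second coefficient Abca1 passed (limma, adjusted p = 0.0156), and so it did when dye-swapped arrays were averaged before the fit (limma, adjusted p = 0.0487 and 0.0291). Abca7, a phospholipid transporter of cell membranes, had 0.19 (limma, adjusted p = 0.375), and Abcg4, a relative of Abcg1, had -0.17 (limma, adjusted p = 0.217).

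Of the 7 tested transporters of drugs, conjugates and bile salts, 3 were lower (42.9%): Abcb1b, Abcb11 and Abcc1. Over all genes tested, 12.2% were lower. Abcb11, the bile salt export pump of liver, was dim here, with mean signals of 210 and 287. Its ratios were -0.59, -0.45, -0.49 and -0.27, and the mean was -0.45 ± 0.0719 (SE, n = 4; limma, adjusted p = 0.0138). It missed the threshold without replicate 1 (adjusted p = 0.0530), without replicate 2 (0.0616) or without replicate 3 (0.0614), and it had -0.06 with normexp (limma, adjusted p = 0.441). Abcg2, the breast cancer resistance protein, had ratios between -0.09 and 0.06 on its bright probe, with a mean of -0.03 ± 0.0580 (SE, n = 4; limma, adjusted p = 0.755). Its second probe had -0.11 (limma, adjusted p = 0.210). Abcc3, Abcc4 and Abcc5, efflux pumps related to Abcc1, had means of 0.17, -0.09 and 0.01 and did not pass.

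Abcc1 encodes MRP1, which exports glutathione conjugates and leukotriene C4. Its 3 probes lie close together on chromosome 16 and gave unequal values. The brightest, A_52_P601688 (chr16:14020966-14021025), had ratios of -0.37, -0.37, -0.42 and -0.42 and a mean of -0.39 ± 0.0526 (SE, n = 4; limma, adjusted p = 0.00878). The other 2 probes share 19 bases, printed in capitals, and lie at chr16:14019972-14020031 and chr16:14020013-14020072. They had means of -0.17 ± 0.0604 (SE, n = 4; limma, adjusted p = 0.111) and -0.11 ± 0.0543 (SE, n = 4; limma, adjusted p = 0.218). The brightest probe gave a lower ratio than A_52_P491507 by 0.26 to 0.32 on every array, and than A_52_P491508 by 0.13 to 0.28. Both differences had the smallest p that 4 arrays allow (exact sign-flip permutation test, two-sided, p = 0.13). Over the 30 pairs of probes compared in this way, the lowest p adjusted by Benjamini-Hochberg was 0.536. By the median of its probes, -0.17, Abcc1 did not pass (limma, adjusted p = 0.0719).
Abcc1 A_52_P491508: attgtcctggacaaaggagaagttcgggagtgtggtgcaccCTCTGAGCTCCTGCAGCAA
Abcc1 A_52_P491507: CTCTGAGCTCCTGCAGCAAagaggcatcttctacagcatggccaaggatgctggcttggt
Abcc1 A_52_P601688: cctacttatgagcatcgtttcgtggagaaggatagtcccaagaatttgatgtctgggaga

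**Figure D3:**
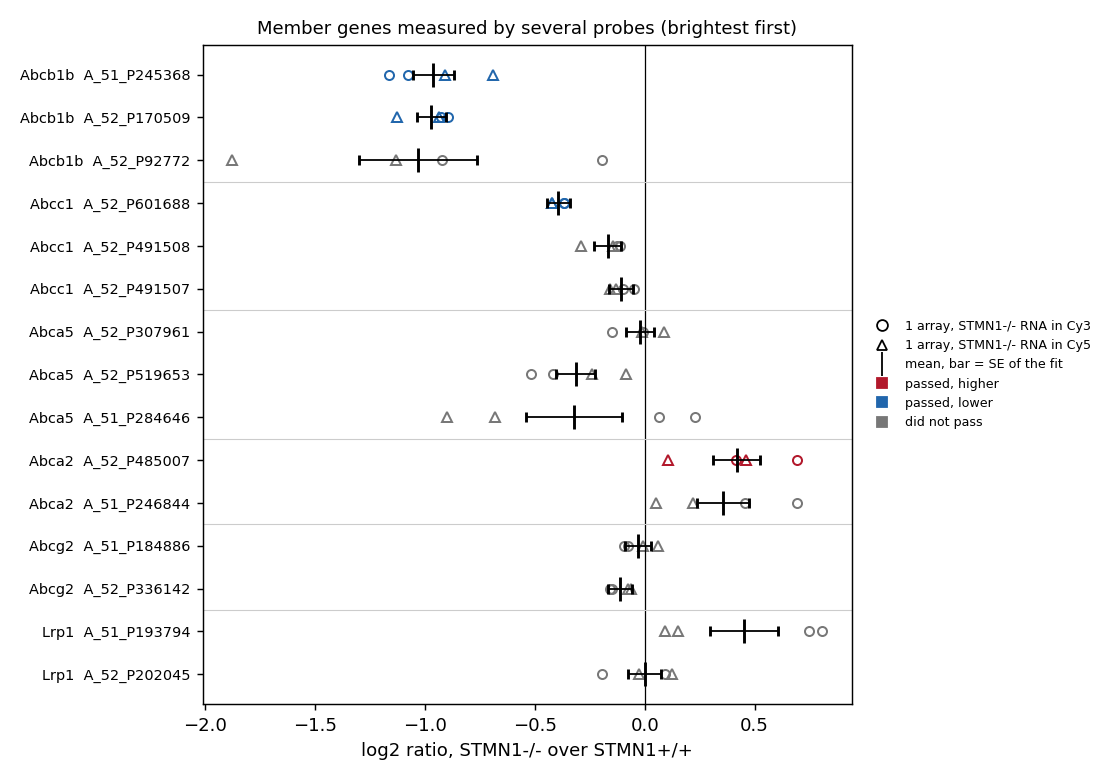
Log2 ratio (x axis) for the tested probes of 6 member genes (y axis, brightest probe of a gene first), with circles and triangles for single arrays of either dye orientation and black ticks with bars for the mean and SE. The 3 Abcb1b probes have means of -0.96 to -1.03, whereas the Abcc1 and Lrp1 probes differ within a gene.

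Of the half-transporters of mitochondria and lysosomes, Abcb8 had a mean of 0.27, Abcb9 of 0.26, Abcb6 of 0.22 and Abcb10 of -0.14, and none of these 4 passed (limma, lowest adjusted p = 0.0588). With the dye as a second coefficient, Abcb6, Abcb8 and Abcb9 passed (limma, adjusted p = 0.0297, 0.0280 and 0.0186).

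Abca2 and Abca9 were the called ABC genes on the higher side. Abca2 is an endolysosomal transporter that is abundant in oligodendrocytes. Its brightest probe (A_52_P485007, chr2:25455496-25455555) had ratios of 0.41, 0.69, 0.46 and 0.11 and a mean of 0.42 ± 0.106 (SE, n = 4; limma, adjusted p = 0.0474). The second probe had 0.35 and did not pass (limma, adjusted p = 0.0942). Abca2 lost its call without replicate 1, 2 or 3 (limma, adjusted p = 0.127, 0.128 and 0.138). Abca9 was near background, with mean signals of 179 and 125 and a STMN1+/+ signal well above background on 2 of 4 arrays. Its mean was 0.52 ± 0.0947 (SE, n = 4; limma, adjusted p = 0.0202), and it lost its call without replicate 1, 2 or 3 (limma, adjusted p = 0.0757, 0.0815 and 0.0787). With normexp the ratios were 0.18 for Abca2 (limma, adjusted p = 0.101) and 0.07 for Abca9 (limma, adjusted p = 0.347).

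Abca9 lies in a run of related genes on chromosome 11, whose tested members come in the order Abca8a, Abca9, Abca6 and Abca5 by probe position (chr11:110134677 to 110378749). By the brightest probe, its neighbours in that run had means of -0.21 for Abca8a, 0.06 for Abca6 and -0.02 for Abca5, and did not pass (limma, lowest adjusted p = 0.120). The dimmer Abca5 probes A_52_P519653 and A_51_P284646 had means of -0.31 and -0.32 and did not pass either (limma, adjusted p = 0.0648 and 0.345). The highest mean among uncalled members by the brightest probe was that of Abcc9, the sulfonylurea receptor subunit of ATP-sensitive potassium channels, at 0.70 (limma, adjusted p = 0.218). Its ratios were -0.02, 1.82, -0.05 and 1.06, and its signal was well above background on 1 array in STMN1-/- MEFs and on none in STMN1+/+ MEFs. The channel's pore subunit Kcnj8 was measured well above background and was higher, at 1.58 ± 0.0720 (SE, n = 4; limma, adjusted p = 0.000803). The 3 tested ABCD genes of peroxisomes and lysosomes and the 4 ribosome factors of the ABCE and ABCF groups had means between -0.19 and 0.18, and none passed the test (limma, lowest adjusted p = 0.0848).

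**Figure D4:**
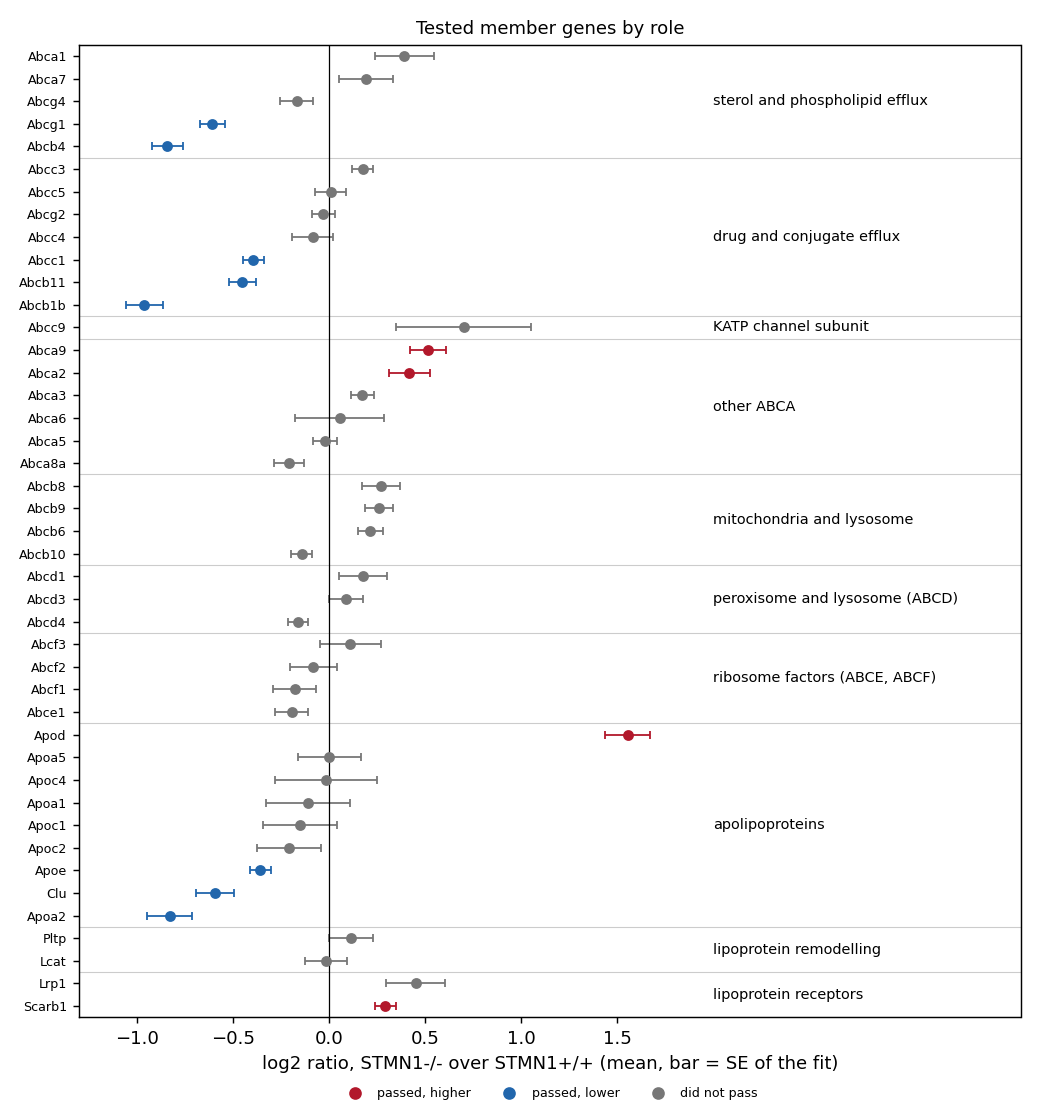
Mean log2 ratio with SE (x axis) for 43 of the 44 tested member genes by the brightest probe (y axis), grouped by role, with red for genes that passed the test as higher, blue for those that passed as lower and grey for the rest. Called genes of the sterol and drug efflux groups all lie below 0, and those of the other ABCA genes lie above it.

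Among the apolipoproteins, Apoe and Clu were lower in STMN1-/- MEFs. Apoe is the ligand through which remnant particles bind endocytic receptors, and Clu (apolipoprotein J) is a secreted chaperone found on HDL. Clu (A_51_P367720, chr14:60841778-60841837) gave signals of 3044, 3299, 3633 and 3873 in STMN1-/- MEFs and of 5273.5, 5639, 4706 and 5236 in STMN1+/+ MEFs. The groups did not overlap, though the gap was wider with STMN1-/- RNA in Cy3. The log2 ratios were -0.79, -0.77, -0.37 and -0.43, with a mean of -0.59 ± 0.0987 (SE, n = 4), a 1.51-fold decrease (limma, adjusted p = 0.0155). Without replicate 1 or 2 Clu lost its call (limma, adjusted p = 0.0562 and 0.0638). Apoe (A_51_P171999, chr7:17378757-17378816) had ratios of -0.40, -0.41, -0.31 and -0.31, with a mean of -0.36 ± 0.0555 (SE, n = 4), a 1.28-fold decrease (limma, adjusted p = 0.0129). Leaving out any 1 array moved Apoe to an adjusted p of 0.0523 to 0.0638 with a mean of -0.38 to -0.34.

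Apoe lies in a cluster on chromosome 7 with Apoc1, Apoc4 and Apoc2, small apolipoproteins that act on lipoprotein lipase and on remnant uptake. Its neighbours did not pass: Apoc1 had -0.15 ± 0.193 (SE, n = 4; limma, adjusted p = 0.619), Apoc4 had -0.02 ± 0.266 (SE, n = 3; limma, adjusted p = 0.974) and Apoc2 had -0.21 ± 0.165 (SE, n = 4; limma, adjusted p = 0.418). The value of Apoc2 came from replicate 3 alone, where the ratio was -0.82, against -0.03 to 0.01 on the other arrays. Apoc1 had ratios of -0.69 and -0.44 with STMN1-/- RNA in Cy3 and of 0.31 and 0.20 with it in Cy5. On replicate 1 the Apoc4 spot was marked as an outlier and left out.

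Apoa2, the second protein of HDL, was lower but close to background. Signals were 46.9, 94.7, 78.1 and 154 in STMN1-/- MEFs, well above background on 1 of 4 arrays, and 106, 142, 150.1 and 237 in STMN1+/+ MEFs, well above background on 3 of 4. The groups overlapped in signal, although STMN1-/- was the lower of the pair on every array. The ratios were -1.18, -0.58, -0.94 and -0.62, with a mean of -0.83 ± 0.120 (SE, n = 4), a 1.78-fold decrease (limma, adjusted p = 0.0107). With normexp the ratio was -0.06 (limma, adjusted p = 0.411). Apoa1 and Apoa5 were also near background, with mean signals of 43.5 and 99.5 in STMN1-/- MEFs and log2 ratios of -0.11 (limma, adjusted p = 0.757) and 0.00 (limma, adjusted p = 0.998).

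Scarb1, the HDL receptor, was higher in STMN1-/- MEFs by a small amount. Its ratios were 0.30, 0.30, 0.34 and 0.23, with a mean of 0.29 ± 0.0538 (SE, n = 4), a 1.23-fold increase (limma, adjusted p = 0.0202). Without 1 array the mean stayed between 0.28 and 0.31 and the adjusted p was 0.0681 to 0.0861. Lrp1, the large endocytic receptor for Apoe, had a mean of 0.45 ± 0.154 (SE, n = 4; limma, adjusted p = 0.0994) by its bright probe, with 0.75 and 0.81 in the first dye orientation and 0.15 and 0.09 in the second. The second Lrp1 probe, dimmer and on the same arrays, had ratios from -0.19 to 0.12 and a mean of 0.00 ± 0.0753 (SE, n = 4; limma, adjusted p = 0.998). The bright probe passed with the dye as a second coefficient (limma, adjusted p = 0.00551) and with dye-swapped arrays averaged (limma, adjusted p = 0.0261 and 0.0278). The difference between the 2 Lrp1 probes was 0.45 ± 0.460 (SD, n = 4; exact sign-flip permutation test, two-sided, p = 0.13). Pltp, which moves phospholipid between lipoproteins, had 0.11 (limma, adjusted p = 0.522), and Lcat, which esterifies the cholesterol of HDL, had -0.02 (limma, adjusted p = 0.926).

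The ratios of many members depended on which genotype carried which dye. Of the 44 tested genes, 16 changed sign between the mean of replicates 1 and 2 and the mean of replicates 3 and 4, 8 in each sense, which is 36.4%. Over all genes tested the share was 33.2%. None of the 13 called genes was among them, which a call made on these same arrays favours. In the fit with the dye as a second coefficient, all 13 called genes passed and so did 10 others, namely Abca1, Lrp1, Abcb6, Abcb8, Abcb9, Abca8a, Abcc3, Abcd4, Abcf1 and Abcg4. For the last 5 of these the adjusted p was 0.0230 to 0.0426 (limma). Of all 14998 genes, that fit called 3251 higher and 3029 lower, against 2008 and 1837 in the fit without the dye coefficient. The ribosome-associated Abcf1, Abcf2 and Abcf3 were higher with STMN1-/- RNA in Cy3 on both arrays and lower with it in Cy5 on both, by their brightest probes.

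**Figure D5:**
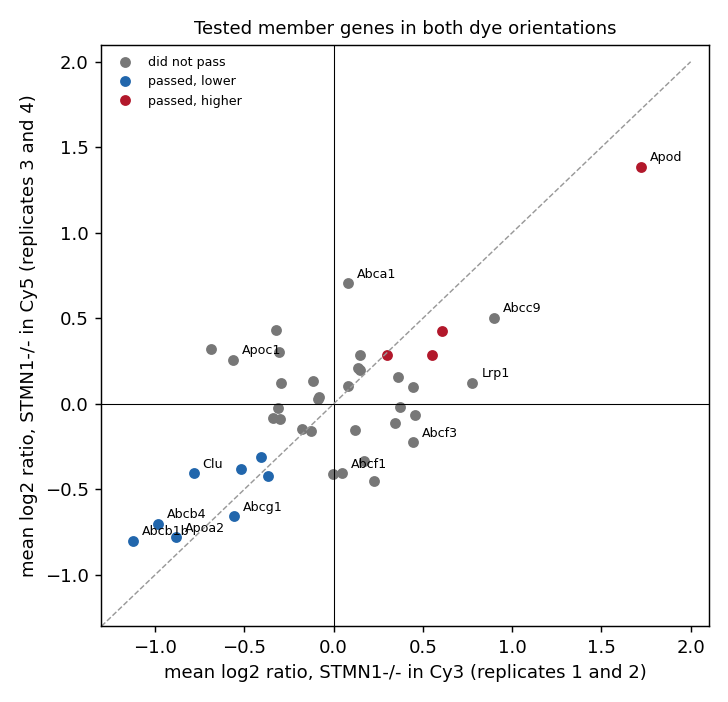
Mean log2 ratio of 43 of the 44 tested member genes with STMN1-/- RNA in Cy3 (x axis, replicates 1 and 2) against that with STMN1-/- RNA in Cy5 (y axis, replicates 3 and 4), with red and blue for genes that passed the test as higher and lower, grey for the rest, and a dashed line of equality. The called genes lie in the quadrants where both orientations have the same sign.

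Genes that set or share the work of these members were read from lists. Beside the counts below, 13.4% of all genes tested were higher and 12.2% were lower. Of 14 nuclear receptor and sterol sensor genes, 6 were higher, 1 was lower and 7 did not pass, and the median ratio was 0.22 against 0.01 for all genes. Mylip, an LXR target and ubiquitin ligase of lipoprotein receptors, was higher by 0.93 ± 0.0736 (SE, n = 4; limma, adjusted p = 0.00224). Insig1, which holds sterol regulatory proteins in the endoplasmic reticulum, was at 0.49 (limma, adjusted p = 0.00999), Srebf2, the main transcription factor of cholesterol synthesis, at 0.47 (limma, adjusted p = 0.0173) and the LXR partner Rxra at 0.38 (limma, adjusted p = 0.0309), the last 2 from 3 arrays each. Pparg, the nuclear receptor of adipocyte differentiation, was lower at -0.43 (limma, adjusted p = 0.0119). The LXR genes themselves, Nr1h2 and Nr1h3, had 0.14 and 0.20 and did not pass (limma, adjusted p = 0.297 and 0.0980). Without replicate 1, 2 or 3, Srebf2 lost its call (limma, adjusted p = 0.0812, 0.0911 and 0.0759), as Rxra did without any 1 array (0.0538 to 0.123) and with normexp (0.0637) and Pparg without replicate 1 or 2 (0.0525 and 0.0553).

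Of 20 tested lipoprotein receptors and their partners, 5 were higher, 3 were lower and 12 did not pass, with a median of 0.22. The receptor for apolipoprotein B48, Apobr, was higher, at 1.15 (limma, adjusted p = 0.000819), Vldlr at 0.81 (limma, adjusted p = 0.00207) and Lrpap1, the chaperone of Lrp1, at 0.30 (limma, adjusted p = 0.0244). On the lower side were the scavenger receptor Cd36 at -1.42 (limma, adjusted p = 0.00241), the endocytic receptor Lrp2 at -0.998 (limma, adjusted p = 0.00108) and Lsr at -0.81 (limma, adjusted p = 0.00271). With normexp Cd36 was at -0.42 and lost its call (limma, adjusted p = 0.0640). Lrpap1 lost its call without any 1 array (adjusted p = 0.0630 to 0.0990).

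Of 20 tested genes of lipid handling, 4 were higher, 2 were lower and 14 did not pass, with a median of 0.08. Pla2g7, a phospholipase carried on lipoproteins, was at 1.44 (limma, adjusted p = 0.000883), Angptl4, an inhibitor of lipoprotein lipase, at 0.56 (limma, adjusted p = 0.0201), Lmf1, needed to fold that lipase, at 0.43 (limma, adjusted p = 0.0151) and Ch25h, which makes the LXR ligand 25-hydroxycholesterol, at 0.36 (limma, adjusted p = 0.0130). The cholesteryl ester hydrolase Nceh1 was at -0.59 (limma, adjusted p = 0.00930) and Cav2, a protein of caveolae, at -0.50 (limma, adjusted p = 0.00566). Angptl4 and Lmf1 lost their calls without replicate 1, 3 or 4 (adjusted p = 0.0682, 0.0786 and 0.0761, and 0.0624, 0.0589 and 0.0572), and Ch25h lost its call without replicate 1, 2 or 3 (0.0565, 0.0638 and 0.0614). With normexp Angptl4, Lmf1, Ch25h and Nceh1 did not pass, at 0.67, 0.54, 0.24 and -0.52 (limma, adjusted p = 0.0689, 0.0821, 0.0526 and 0.0595). Of 8 tested apolipoprotein genes outside the rule, 1 was higher and 3 were lower. Apol6 was at 1.81 (limma, adjusted p = 0.000604), Apol8 at -0.82 (limma, adjusted p = 0.0127), Apoo at -0.45 (limma, adjusted p = 0.00792) and Apon at -0.43 (limma, adjusted p = 0.0299), which lost its call without any 1 array (0.0508 to 0.107). Tap2, an ABC protein of peptide loading whose name the rule does not cover, was at 0.74 (limma, adjusted p = 0.0166). Without replicate 1 or 2 Tap2 lost its call (adjusted p = 0.0565 and 0.0657). With normexp Apol8, Apon and Tap2 did not pass, at -0.24, -0.06 and 0.34 (limma, adjusted p = 0.0753, 0.423 and 0.0800).

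Markers of other cell types moved between the genotypes as well, where 13.4% of all genes tested were higher and 12.2% were lower. Of 6 tested adipocyte markers, 4 were lower, and their summed signal was 5027 to 6003 in STMN1-/- MEFs and 11832 to 12229 in STMN1+/+ MEFs. Of 6 neural and glial markers, 5 were lower and 1 higher, with sums of 45563 to 49742 and 59315 to 67132, and Gfap was not well above background. All 6 tested epithelial markers were lower, with sums of 54508 to 63858 and 81991 to 92540. Of 8 tested macrophage markers, 3 were higher and 2 lower, with sums of 128412 to 149927 and 153802 to 175128. Most of these macrophage sums came from Lyz2, which did not pass (limma, adjusted p = 0.0858), with mean signals of 129200 and 151406. Likewise, most of the adipocyte sums came from Fabp4 (5014 and 11137), and most of the endothelial sums given below from Flt1 (31247 and 15816). Apoe, Clu and Abca2 are genes that glia, macrophages or fat cells also express, and the part of those cells in the ratios above was not tested. In bulk RNA, fewer cells of a type and less RNA per cell cannot be told apart. The hepatocyte markers Alb, Ttr and Fgb were not well above background, nor were the endothelial markers Pecam1, Cdh5 and Tie1. Of 2 tested hepatocyte markers 1 was lower, with sums of 930 to 1202 and 904 to 1476, of 4 endothelial markers 2 were higher and 1 lower, with sums of 31651 to 35997 and 17405 to 20910, and of 6 pericyte markers 2 were higher, with sums over the 5 measured on every array of 47390 to 52585 and 44770 to 53358.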

How the data were processed

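The intensity values were made by the authors with Agilent Feature Extraction 9.5.3.1, which per the file headers subtracted the background with spatial detrending, normalized the dyes by LOWESS and gave dim spots surrogate values. The log10 ratios of the same deposited files come from these signals. The log2 ratios of STMN1-/- over STMN1+/+ that the authors deposited, made in GeneSpring, cover 7082 probes that had passed the authors' own filters and t-test, and their second list holds a subset of the same values and was not used. Probe coordinates are on mm7, and no genome was used here, so exon and UTR positions were not annotated.

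Of 45018 spots per array, 1639 were controls and were left out, as were outlier spots; spots of a probe were averaged. Processed signals were turned into log2 ratios by the dye labels. Probes with 1 array or more on which either genotype was well above background were tested (27724 of 41174; 13415 were dim) against 0 with limma 3.58.1 in R 4.3.3, and each gene is represented by its probe of highest mean signal. Where a genotype was never well above background, a fold is a lower bound: the brighter genotype's mean over the higher of the dim probe's signal and the lowest signal of any spot well above background (105 to 140), per array. No spot was saturated, and the number of arrays limits the precision. All arrays share 1 slide and 1 scan, so no batch could be tested. A few genes that the rule covers are not reported here. Named genes are otherwise every called member, every tested lipoprotein gene, main uncalled efflux genes and up to 4 called genes per list and direction, with single-array values for members called at 1.5-fold or more. Nr1h2, Nr1h3 and the chromosome 5 neighbours were named after their values were seen. The list results are counts and medians with no set test. Members and lists were chosen with earlier results of these data known. Python 3.11.15, pandas 2.3.3, numpy 2.4.6, scipy 1.17.1, biopython 1.88 and matplotlib 3.10.9 were used. The fit was also run on simulated ratios, drawn independently for each array and without a dye effect. That run could not show how the fit deals with the dye. Alternatives were normexp (offset 50) with loess, the log10 ratios, centring, scaling, the filter on dim probes, outlier spots, the dye as a coefficient, averaged dye swaps, the methods' t-test, alone or with their limit of 50% on variation, the deposited log2 ratios, arrays left out and the median over a gene's probes.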

Additional observations from a re-analysis of the deposited data

Results flagged for a closer look

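Of 65 member probes with a value on each of the 4 arrays, 5 had 1 array far from the others, where chance alone marks about 5% of such sets. The most extreme was the dim Abcb8 probe A_51_P408784, with a log2 ratio of 9.04 on replicate 4 and of 0.05 to 0.30 on the others. The signal on that array was 14998 in STMN1-/- and 28.5 in STMN1+/+ RNA, and this spot was not among those marked as outliers. On the other arrays neither genotype was well above background for this probe, so its mean rise rests on that spot alone (limma, adjusted p = 0.372). The brighter Abcb8 probe had a mean log2 ratio of 0.27. The Apoc2 ratio on replicate 3 was -0.82, against -0.03 to 0.01 elsewhere. Lcat had 0.36 on replicate 2 and -0.18 to -0.11 elsewhere. The ratio of Abca9, which was called, was 0.21 on replicate 4 and 0.58 to 0.64 elsewhere. The Abcb1b probe A_52_P170509, also called, had -1.13 on replicate 3 and -0.93 to -0.90 elsewhere.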

How the results depend on the processing

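Of the 13 called members, Abcb1b, Abcb4 and Abcg1 kept their call and direction under all 18 alternatives, and none of the 13 changed sign where a setting gave a value. Counts of ABC genes higher, 2 in the report, were 0 with normexp and loess and 0 with the methods' t-test without or with the limit on variation (at an unadjusted p under 0.05, 3 with normexp in limma and 6 with the t-test), 1 without the filter on dim probes, 4 with arrays 1 and 3 and 2 and 4 averaged, 4 with the deposited ratios, 5 by the median over a gene's probes, 7 with the dye as a second coefficient and 0 to 2 with 1 array left out (limma; 3 to 5 at an unadjusted p). ABC genes lower, 6 in the report, numbered 10 with the dye coefficient and 4 to 5 with 1 array left out. They numbered 4 with normexp and loess, 5 without the filter on dim probes and 9 with the deposited ratios. Lipoprotein genes higher, 2 in the report, numbered 1 with normexp, 1 without the filter and 1 with any 1 array left out. Lipoprotein genes lower, 3 in the report, numbered 1 with the methods' t-test, alone or with the limit, and 1 to 2 with 1 array left out. The methods' t-test ended the calls of Clu, Apoa2, Abca9 and Abca2 (adjusted p = 0.0676, 0.0586, 0.0767 and 0.134) and those of Apol8, Apon, Angptl4, Tap2 and Rxra (0.0665, 0.0933, 0.0801, 0.0784 and 0.0543), and leaving out the filter ended those of Abca2, Scarb1, Apon, Lrpap1 and Rxra (limma, 0.0933, 0.0590, 0.0649, 0.0652 and 0.0811). With 1 array fewer, calls over all genes fell too, from 2008 higher and 1837 lower to 976 to 1113 and 832 to 952. With the dye coefficient, calls over all genes rose to 3251 higher and 3029 lower. The deposited ratios hold only probes that had passed a test, so more of them pass.

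Among uncalled genes, the sign of Apoc4 turned with normexp (0.029), with scaling (0.0044), with outlier spots kept (0.68) and with dye swaps averaged (0.0025 and 0.14). With 1 array left out, Apoc4 ranged from -0.32 to 0.32, Apoa1 from -0.37 to 0.073, Apoa5 from -0.10 to 0.19, Apoc1 from -0.31 to 0.026 and Lcat from -0.14 to 0.037. The cause was not tested. Each ratio pairs the genotypes within an array, and the dye swaps were paired as given above; the arrays form 1 group, so no replicate block between groups could be fitted. Signal over background limits Apoa1, Apoa2, Apoa5, Apoc4, Abca9 and Abcc9.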
